A study of Homo sapiens with 12 samples.

Results

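Class I molecules of the major histocompatibility complex show peptides from inside the cell to cytotoxic T cells and natural killer cells. A heavy chain pairs with beta-2-microglobulin in the endoplasmic reticulum and is loaded with peptides that the proteasome and aminopeptidases have cut and that the TAP transporter has carried in. In lymphoid cells the genes of this machinery are controlled together by NLRC5, by RFX factors, by NF-κB and by interferon regulatory factors. An inhibitor of aminopeptidases acts upstream of this route, on the enzymes that shorten peptides. The expression of 9 of its genes was followed here: the heavy chains HLA-B, HLA-C, HLA-E and HLA-F, the light chain B2M, the peptide transporter subunits TAP1 and TAP2, tapasin (TAPBP) and the regulator NLRC5. They were taken as the probe sets (groups of probes for a transcript) that the platform annotation assigns to each of these genes alone. This gave 25 probe sets of 54613 other than controls, and 9 genes of 15587 tested.

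H929, a human myeloma cell line, was profiled on Affymetrix U133 Plus 2.0 arrays in 4 groups of 3 arrays. The treated groups were exposed for 24 hours. CHR-3996, an inhibitor of histone deacetylases, was given at 250 nM. Tosedostat, an aminopeptidase inhibitor that the labels call CHR2797, was given at 1 µM, and the combination held both compounds at these doses. The remaining group was untreated, and the labels give no time for it. The compounds were dissolved in DMSO, and no vehicle is named for the untreated cells. All results come from 1 cell line, and RNA was measured, not protein or surface display. The labels name the arrays of a group biological replicates, and no source ties them to cultures grown apart, so the p-values reflect the spread between these samples, which may be technical.

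Values are given on the log2 scale of the deposited table, so that a difference of 1 is a doubling. A change was called at an adjusted p under 0.05 in limma, fitted to all tested probe sets. The 9 genes are represented by their brightest probe set where a gene is counted, and levels of different probe sets cannot be set against each other. All 11 plasma cell and myeloma markers were among the tested probe sets, as were 15587 of 19775 genes, so being tested does not show identity. Among 18 markers of other lineages, 9 were too dim to test. Of the other 9, the monocyte marker LYZ was called higher with CHR-3996 (2.03) and the combination (2.04), as was the T cell marker CD2 (0.60 and 0.51). Every untreated and tosedostat array for LYZ was below its 40th percentile, so LYZ was tested only through the groups where it was high. Of the 11 plasma cell and myeloma markers, 5 were lower under CHR-3996, including the surface proteins SDC1 (fell by 1.82) and TNFRSF17 (fell by 1.74), and 0 were higher. Over all genes 18% were called lower and 31.7% higher there. Under tosedostat 0 were called, where 4.25% of all genes were higher and 0.545% lower. Under the combination 4 were lower and 2, CD38 and NSD2, higher (15.9% and 34.6% of all genes). The summed linear level of the 11 markers was 21494 to 34448 under CHR-3996, 46727 to 51817 under tosedostat, 30270 to 31375 under the combination and 45377 to 47500 in untreated cells. Array medians lay between 5.24 and 5.29 for CHR-3996, 5.04 and 5.06 for tosedostat, 5.26 and 5.30 for the combination, and 5.0 and 5.06 for untreated cells. The excess of the actin probe set at the 3-prime end over that at the 5-prime end was 1.43 to 1.76 under CHR-3996, 1.97 to 2.19 under tosedostat, 1.08 to 1.38 under the combination and 1.98 to 2.32 in untreated cells. The part of these marker and array differences in the results for CHR-3996 and the combination was not tested. The median change over all tested probe sets was 0.11 for CHR-3996, 0.03 for tosedostat and 0.14 for the combination against untreated cells. Setting every array to 1 median turned these into -0.11, 0.02 and -0.10, and quantile normalization into -0.10, -0.02 and -0.12, so small changes under CHR-3996 and the combination depend on the scaling.

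The genes fell into distinct patterns. Tosedostat raised HLA-B, HLA-F, TAP1 and TAPBP and lowered none of the 9, where 4.25% of all tested genes were called higher and 0.545% lower. CHR-3996 raised HLA-E, HLA-F, TAP1 and NLRC5 and lowered TAP2, where 31.7% of all genes were called higher and 18% lower, so that 4 and 1 of 9 are shares near those of all genes. The combination raised HLA-B, HLA-E, HLA-F, TAP1 and NLRC5 and lowered TAP2, against 34.6% of all genes higher and 15.9% lower. With equal array medians the combination calls of HLA-B and HLA-E and the CHR-3996 calls of HLA-E and TAP1 were lost. With 1 array left out, 2 to 4 of the 9 genes were called with tosedostat. Probe sets of a gene or of close paralogs can share signal, so the counts below are not of separate members. By probe set, 10 of 25 were higher and 0 lower with tosedostat (3.23% and 0.451% of all probe sets), 10 higher and 3 lower with CHR-3996 (29.4% and 15.7%), and 15 higher and 3 lower with the combination (32% and 14.1%). The median change of the 9 genes was 0.28 with CHR-3996, 0.40 with tosedostat and 0.36 with the combination, beside medians over all genes of 0.11, 0.04 and 0.15. The treated and untreated arrays did not overlap for 7 genes with CHR-3996, 8 with tosedostat and 8 with the combination, where this held for 57.8%, 29.3% and 60.2% of all genes.

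The sequences before the gene starts are shown as a description, since some promoter elements are known from class I genes. Whether such elements relate to the changes was not tested. RefSeq windows (GRCh38.p14) were at hand for 7 of the 9 genes: HLA-B, HLA-C, HLA-F, B2M, TAP1, TAP2 and TAPBP. The 250 bases before the annotated start are printed 5′ to 3′ on the gene's own strand for 5 of them. Capitals mark 2 letter patterns found on either strand. One is GAAA, any 2 bases and GAAA again, the core of the interferon-stimulated response element, called the interferon pattern here. The other is CCAAT, the core of the Y box that NF-Y binds. Where matches of a pattern overlap, the whole run is in capitals.
HLA-B (chr6:31357180-31357429, minus strand): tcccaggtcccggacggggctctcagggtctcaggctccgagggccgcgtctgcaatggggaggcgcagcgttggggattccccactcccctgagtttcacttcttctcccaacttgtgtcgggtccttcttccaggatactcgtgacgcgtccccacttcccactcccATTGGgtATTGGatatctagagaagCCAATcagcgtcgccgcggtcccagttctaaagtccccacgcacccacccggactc
HLA-F (chr6:29723184-29723433, plus strand): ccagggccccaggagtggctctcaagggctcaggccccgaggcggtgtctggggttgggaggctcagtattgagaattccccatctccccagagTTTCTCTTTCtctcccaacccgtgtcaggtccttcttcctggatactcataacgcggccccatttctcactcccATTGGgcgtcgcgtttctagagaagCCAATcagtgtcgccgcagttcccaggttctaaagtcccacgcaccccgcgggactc
TAP1 (chr6:32853705-32853954, minus strand): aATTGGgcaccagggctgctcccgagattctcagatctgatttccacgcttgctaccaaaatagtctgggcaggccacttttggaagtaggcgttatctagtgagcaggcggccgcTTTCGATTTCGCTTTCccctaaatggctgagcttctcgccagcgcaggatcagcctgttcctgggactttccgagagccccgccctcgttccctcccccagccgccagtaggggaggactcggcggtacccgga
TAP2 (chr6:32838740-32838989, minus strand): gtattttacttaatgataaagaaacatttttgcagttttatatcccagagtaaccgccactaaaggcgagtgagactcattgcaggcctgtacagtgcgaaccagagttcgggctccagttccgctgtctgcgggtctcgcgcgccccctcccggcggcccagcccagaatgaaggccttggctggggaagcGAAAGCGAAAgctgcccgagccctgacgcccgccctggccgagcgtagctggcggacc
TAPBP (chr6:33314079-33314328, minus strand): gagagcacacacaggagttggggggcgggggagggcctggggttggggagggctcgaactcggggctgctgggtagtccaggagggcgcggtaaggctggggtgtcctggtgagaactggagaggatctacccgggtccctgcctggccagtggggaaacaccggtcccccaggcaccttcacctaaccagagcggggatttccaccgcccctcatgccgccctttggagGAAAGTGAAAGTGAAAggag

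The interferon pattern was in 5 of the 7 windows (HLA-F, B2M, TAP1, TAP2 and TAPBP) and in 3.02% of all 35116 RefSeq windows searched in the same way. In TAP1 the run began 134 bases before the start and in TAPBP 20 bases before it, and both were runs of overlapping matches. CCAAT was in 5 of the 7 windows (HLA-B, HLA-C, HLA-F, B2M and TAP1) and in 32% of all windows. The heavy chains carried it in either direction between 95 and 52 bases before the start, and HLA-C had one more match at 192 bases. A loose form of NF-κB sites, GGG with any 5 bases and CC, was in 6 of 7 windows and in 54.4% of all, and CCGCCC, a GC box, in 4 of 7 and in 42.6% of all. TGACGT, from the cyclic AMP response element, and TTCNNNGAA, from interferon-gamma activated sites, were in 0 of 7 windows and in 7.1% and 6.57% of all. TAP1 has another RefSeq start, not printed, whose window does hold TTCNNNGAA. These are matches of letters and say nothing of which factor was bound.

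**Figure D1:**
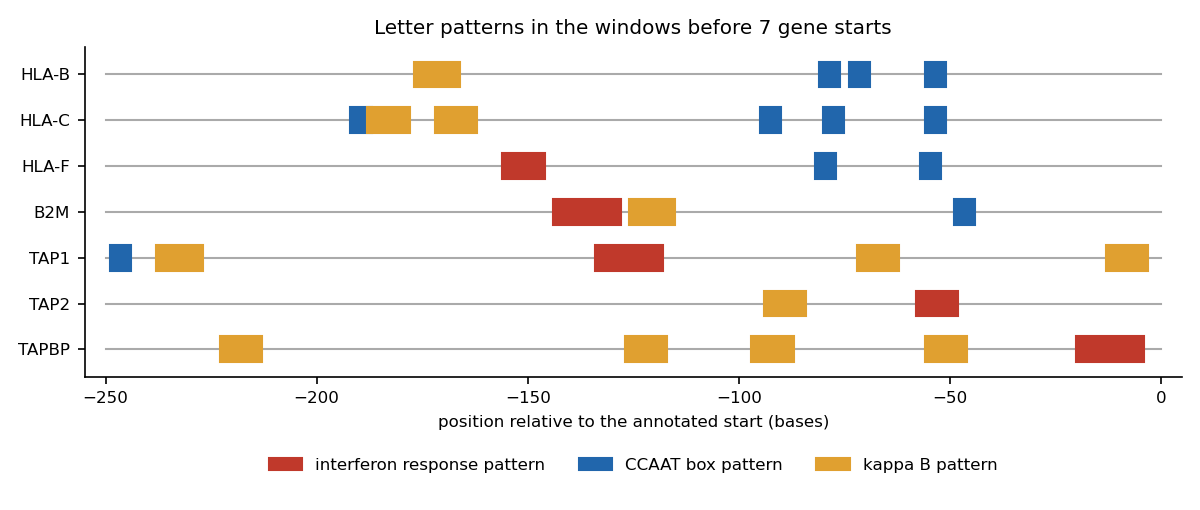
Positions of 3 letter patterns in the 250 bases before the annotated start of 7 genes, with position relative to the start in bases on the x axis and 1 line per gene. Red boxes mark the interferon pattern, blue boxes CCAAT and yellow boxes the loose NF-κB pattern on either strand. The heavy chains share blue boxes near the start, and red boxes lie in HLA-F, B2M, TAP1, TAP2 and TAPBP.

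Among the heavy chains, HLA-F was raised by every treatment. HLA-F is a class I molecule of limited polymorphism that can reach the surface of activated lymphocytes. Its probe set 221978_at had values of 6.0, 6.06 and 6.04 with CHR-3996, 6.21, 5.45 and 6.07 with tosedostat and 6.56, 6.37 and 6.38 with the combination, against 4.47, 3.89 and 4.31 in untreated cells. Every treated array lay above every untreated one. The changes were 1.81 ± 0.20 for CHR-3996, 1.68 ± 0.20 for tosedostat and 2.21 ± 0.20 for the combination (SE), with limma adjusted p of 2.46e-05, 0.00139 and 5.65e-06. On 2 of the 3 untreated arrays the value was below the array's 40th percentile, so the size of these changes rests on a dim baseline. The brightest HLA-F probe set, 221875_x_at, averaged 11.30 ± 0.22, 11.45 ± 0.14 and 11.61 ± 0.17 in the CHR-3996, tosedostat and combination groups and 10.63 ± 0.05 in untreated cells (SD, n = 3 each), changes of 0.67, 0.82 and 0.98. The third, 204806_x_at, gave 0.33, 0.61 and 0.67, so that all 3 HLA-F probe sets were called higher in each comparison. The CHR-3996 call of 204806_x_at was lost with equal array medians (0.11), and the brightest kept its call in every alternative with a limma fit and whichever array was left out.

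HLA-E behaved differently from HLA-F. HLA-E presents leader peptides of other class I chains to the CD94 and NKG2A receptor of natural killer cells. Its probe set 200904_at read 10.07, 10.31 and 10.24 with CHR-3996, 8.91, 8.89 and 8.75 with tosedostat and 9.84, 9.51 and 9.52 with the combination, against 9.25, 9.09 and 9.04 in untreated cells. CHR-3996 arrays were the highest and tosedostat arrays the lowest, with no overlap between any of the 4 groups. The change was 1.08 ± 0.13 (SE) for CHR-3996 (limma adjusted p = 3.68e-05) and 0.50 ± 0.13 for the combination (0.00709), and tosedostat gave -0.28 with an adjusted p of 0.31. The combination lay below CHR-3996 alone by a difference of -0.58 (95% interval -0.86 to -0.30), which did not pass the adjustment over all probe sets (0.175). The other HLA-E probe sets, 200905_x_at and 217456_x_at, were called higher with the combination (0.34 and 0.38) and gave 0.00 and 0.17 with tosedostat. With CHR-3996 they gave 0.30, which was called (adjusted p = 0.047), and 0.29, which was not (0.0643). The CHR-3996 call of 200905_x_at was kept only without replicate 1 of CHR-3996 or replicate 1 or 2 of the combination, and was lost without any other single array (0.23 to 0.31, adjusted p up to 0.144). Its call with the combination was lost without replicate 1 or 3 of the combination or any single untreated array (0.27 to 0.34). With equal array medians the CHR-3996 change of 200904_at was 0.86 and still called, whereas the change of the brightest, 200905_x_at, was 0.08 with an adjusted p of 0.599. The call of 200904_at for the combination was lost under both scalings, with changes of 0.23 and 0.25. With equal array medians the combination calls of 200905_x_at and 217456_x_at were lost as well (0.09 and 0.14, limma adjusted p = 0.535 and 0.351).

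HLA-B and HLA-C, the classical heavy chains that present peptides to CD8 T cells, were highest with tosedostat or the combination. The brightest HLA-B probe set read 12.16, 12.57 and 12.25 with CHR-3996, 12.67, 12.50 and 12.62 with tosedostat and 12.65, 12.42 and 12.47 with the combination, against 12.05, 12.01 and 12.10 in untreated cells. No treated array fell within the untreated range. The change was 0.54 ± 0.13 (SE) with tosedostat (limma adjusted p = 0.0406) and 0.46 ± 0.13 with the combination (0.0113), and CHR-3996 gave 0.28 with an adjusted p of 0.101. The tosedostat change was between 0.51 and 0.59 whichever array was left out, but its call was lost without replicate 3 of CHR-3996, replicate 2 or 3 of the combination, or any single tosedostat or untreated array (adjusted p up to 0.134). All 3 HLA-B probe sets were called higher with tosedostat, by 0.54 to 0.70, and with the combination, by 0.46 to 0.78. With CHR-3996 the other 2, 208729_x_at and 211911_x_at, were called higher as well (0.46 and 0.51, adjusted p = 0.0167 and 0.0124). With quantile normalization the brightest was also called with CHR-3996 (0.36). With equal array medians none of the 3 was called with CHR-3996 (0.06 to 0.29), and the combination call of the brightest was lost (0.21, adjusted p = 0.181).

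For HLA-C, probe set 211799_x_at read 10.03, 10.69 and 10.36 with CHR-3996, 10.93, 10.80 and 10.95 with tosedostat and 10.70, 10.62 and 10.80 with the combination, against 10.03, 10.18 and 10.32 in untreated cells. Tosedostat and combination arrays lay above all untreated ones, and CHR-3996 arrays overlapped them. It was called higher with tosedostat (0.72, limma adjusted p = 0.0328) and with the combination (0.53, 0.0171). The other 3 HLA-C probe sets gave 0.40 to 0.51 with tosedostat without passing the threshold (adjusted p 0.0519 to 0.111), and the brightest of them was called with quantile normalization (0.37, adjusted p = 0.038) and in the fit with a variance trend. With the combination 208812_x_at was also called (0.35), and the remaining 2 gave 0.18 and 0.26. Both combination calls were lost with equal array medians (0.28 for 211799_x_at and 0.10 for 208812_x_at), and that of 208812_x_at also with the replicate number as a block (adjusted p = 0.0532). With CHR-3996 the 4 probe sets gave 0.05 to 0.18 and none was called. Under the other scalings 208812_x_at was called with quantile normalization (0.25), and the brightest gave -0.17 with equal array medians. Of the 13 probe sets of the heavy chains, 11 carry the suffix that marks probes shared with other transcripts. The heavy chain genes are close paralogs, so signal can be divided between them, and the other 2, 200904_at of HLA-E and 221978_at of HLA-F, are the ones that differed most between the groups.

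**Figure D2:**
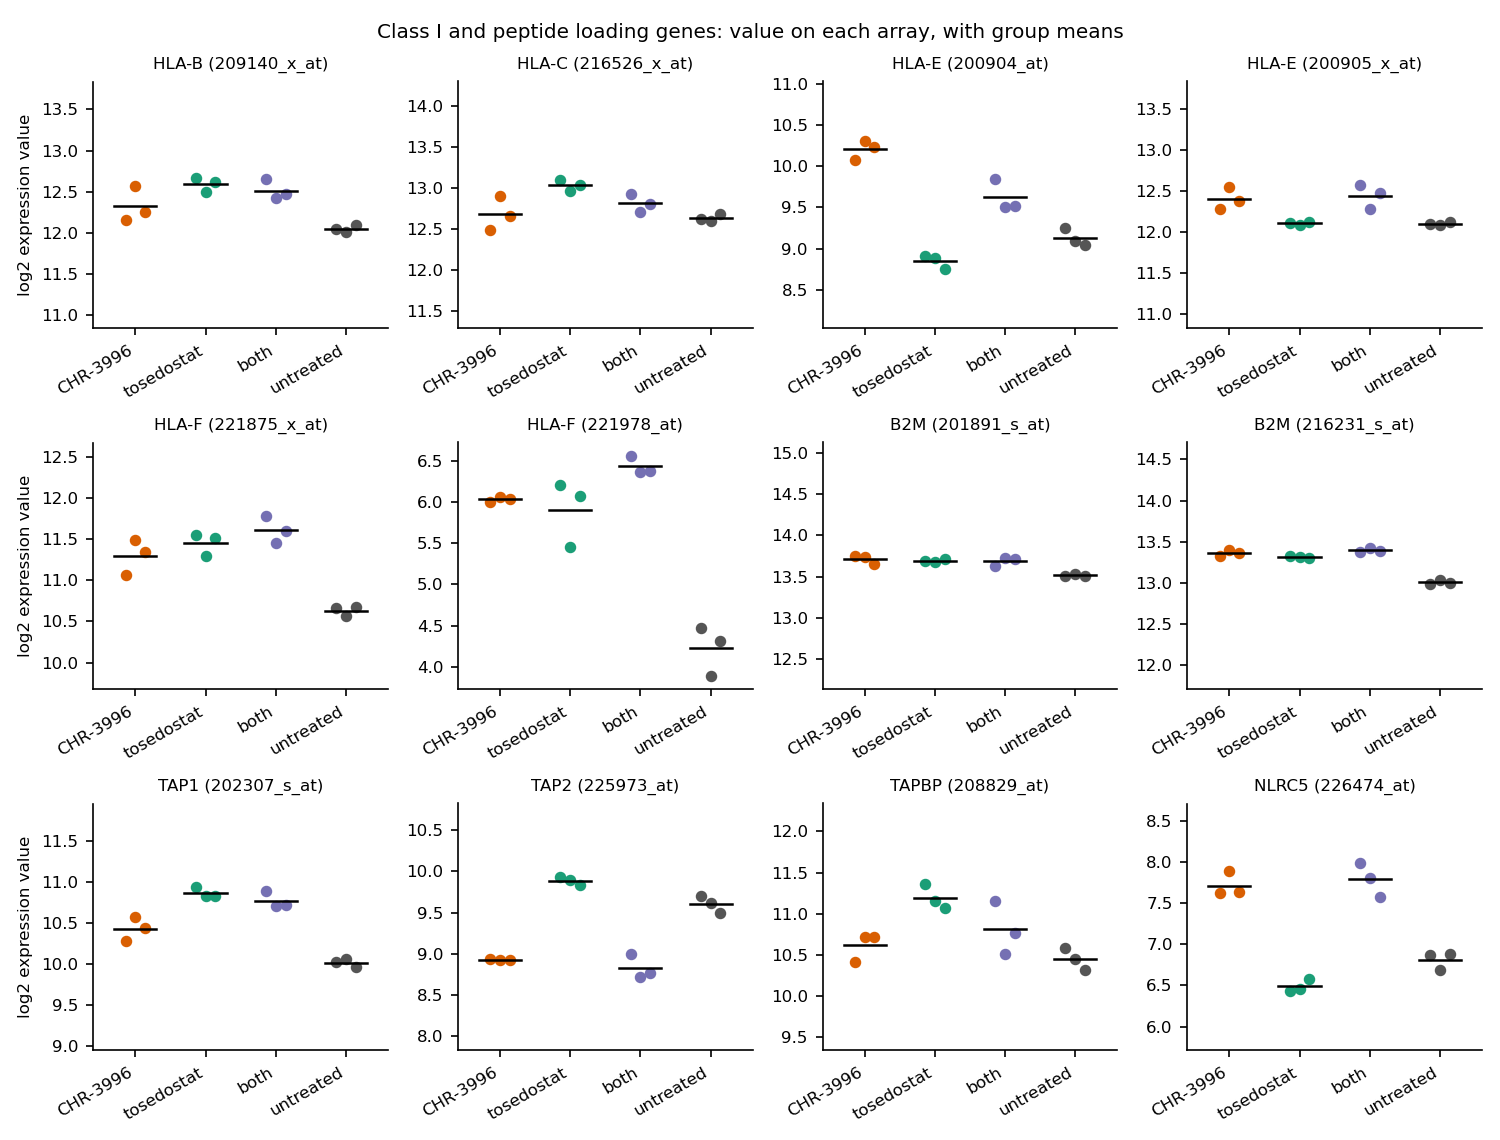
Each of 12 panels shows 1 probe set, with the log2 value on each of 12 arrays on the y axis (every panel spans 3 log2 units) and the CHR-3996, tosedostat, combination ("both") and untreated groups on the x axis. Points are arrays and lines are means of 3. HLA-F is higher in all treated groups, HLA-E in 200904_at and NLRC5 are higher with CHR-3996 and the combination but not with tosedostat, and TAP2 is lower with them.

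Beta-2-microglobulin, the invariant light chain, gave small differences. Its brightest probe set read 13.75, 13.74 and 13.65 with CHR-3996, 13.69, 13.68 and 13.71 with tosedostat and 13.63, 13.73 and 13.71 with the combination, against 13.51, 13.53 and 13.51 in untreated cells. Every treated array was above the untreated ones, by mean differences of 0.20, 0.18 and 0.18, and none of these was called by limma (adjusted p 0.0881, 0.359 and 0.127). With CHR-3996 and with the combination it was called with quantile normalization (0.25 and 0.24) and in a fit with a variance trend, whereas equal array medians gave -0.02 and -0.07. Probe set 216231_s_at was called higher with CHR-3996 (0.35) and the combination (0.39) and gave 0.30 with tosedostat (adjusted p = 0.0931), and neither call was kept with equal array medians. The dim probe set 232311_at was not called in any comparison.

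The subunits of the peptide transporter went separate ways. TAP1 and TAP2 form the pump that carries peptides of the cytosol into the endoplasmic reticulum, and both genes lie in the class II region of chromosome 6. TAP1 read 10.28, 10.57 and 10.44 with CHR-3996, 10.94, 10.82 and 10.82 with tosedostat and 10.89, 10.70 and 10.72 with the combination, against 10.02, 10.06 and 9.96 in untreated cells. All treated arrays were above all untreated ones, and those with tosedostat or the combination were above those with CHR-3996 alone. The change was 0.41 ± 0.11 with CHR-3996, 0.85 ± 0.11 with tosedostat and 0.76 ± 0.11 with the combination (SE), with limma adjusted p of 0.0094, 0.00213 and 0.000179. The tosedostat and combination calls held in every alternative fit and whichever array was left out, and the CHR-3996 call was lost with equal array medians (0.19, adjusted p = 0.179).

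TAP2 was lower with CHR-3996, alone or combined. Its brightest probe set, 225973_at, read 8.93, 8.92 and 8.92 with CHR-3996, 9.93, 9.89 and 9.84 with tosedostat and 9.0, 8.72 and 8.77 with the combination, against 9.70, 9.61 and 9.49 in untreated cells. The CHR-3996 and combination arrays lay below all untreated arrays, and the tosedostat arrays above them. The change was -0.68 ± 0.11 with CHR-3996 and -0.77 ± 0.11 with the combination (SE, limma adjusted p of 0.00034 and 0.000135), and tosedostat gave 0.29 with an adjusted p of 0.205. Probe sets 204769_s_at and 204770_at were also called lower, by -0.77 and -0.57 with CHR-3996 and by -0.81 and -0.40 with the combination. The remaining, dim 208428_at gave 0.06 and -0.20 and was not called. The TAP2 calls held in every alternative fit and whichever array was left out. The CHR-3996 changes were -0.90 to -0.49 over fits that include other TAP2 probe sets or their mean. For 225973_at itself the change was -0.86 with quantile normalization and -0.90 with equal medians.

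Tapasin, which bridges the transporter and the empty class I molecule, resembled TAP1 in its rise with tosedostat. Its brightest probe set, 208829_at, read 10.41, 10.72 and 10.72 with CHR-3996, 11.36, 11.15 and 11.07 with tosedostat and 11.15, 10.51 and 10.77 with the combination, against 10.58, 10.45 and 10.32 in untreated cells. Tosedostat arrays stood above all untreated arrays, and the CHR-3996 and combination arrays overlapped them. The change was 0.75 ± 0.17 (SE) with tosedostat (limma adjusted p = 0.0374), and 0.17 with CHR-3996 (0.467) and 0.36 with the combination (0.106) were not called. The call was lost without replicate 3 of CHR-3996, replicate 3 of the combination, or any single tosedostat or untreated array, with changes of 0.67 to 0.81 and adjusted p up to 0.133. A second probe set, 1555565_s_at, was called higher with tosedostat (0.48) and the combination (0.42), with the combination call not kept under either scaling. The remaining probe set, 210294_at, gave 0.36, 0.42 and 0.36 with CHR-3996, tosedostat and the combination and was not called.

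NLRC5, the transactivator that binds class I promoters through the RFX complex, rose with CHR-3996 and the combination. It read 7.62, 7.89 and 7.63 with CHR-3996, 6.43, 6.45 and 6.58 with tosedostat and 7.99, 7.81 and 7.57 with the combination, against 6.87, 6.69 and 6.88 in untreated cells. The tosedostat arrays were the lowest, and neither they nor the CHR-3996 and combination arrays overlapped the untreated ones. The change was 0.90 ± 0.13 with CHR-3996 and 0.98 ± 0.13 with the combination (SE, limma adjusted p of 0.000198 and 0.000107), and tosedostat gave -0.33 with an adjusted p of 0.241. Under the other scalings the CHR-3996 change was 0.53 or 0.68 and remained called, and no left-out array ended the call.

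**Figure D3:**
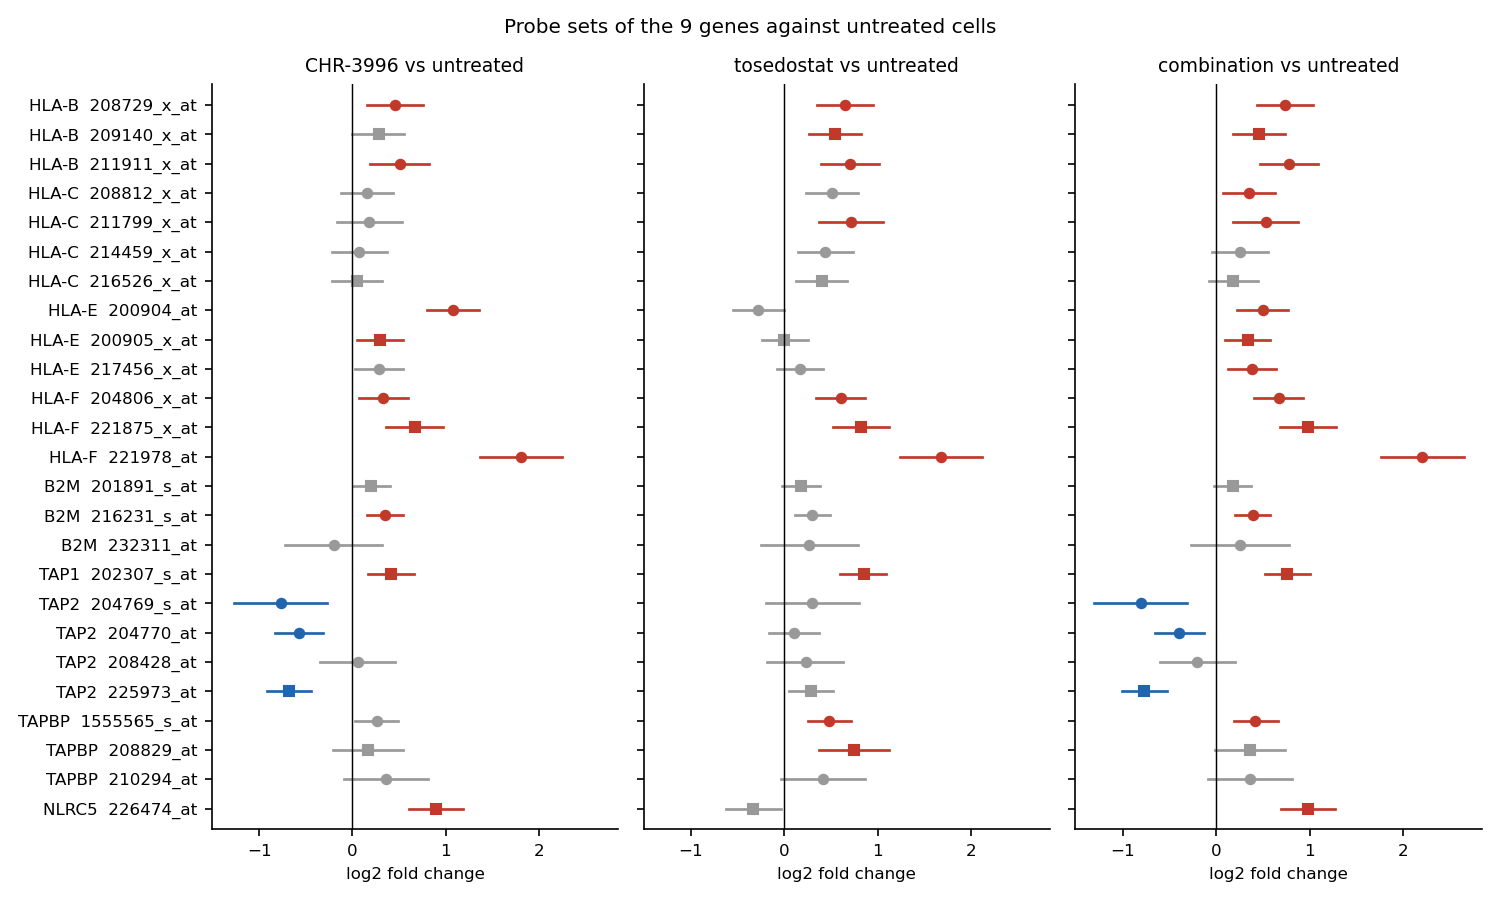
Log2 fold change against untreated cells (x axis) of the 25 probe sets (y axis) for CHR-3996, tosedostat and the combination, with 95% intervals from limma. Squares are the brightest probe set of each gene and circles the others; red is called higher, blue called lower and grey not called. TAP2 is blue in 3 of 4 probe sets with CHR-3996 and with the combination, and no probe set is blue with tosedostat.

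The difference between the compounds was tested directly. In CHR-3996 against tosedostat arrays, NLRC5 was higher and HLA-C, TAP1, TAP2 and TAPBP were lower, where 27.9% of all genes were called higher and 19.3% lower. NLRC5 was higher by 1.23 (95% interval 0.94 to 1.52, limma adjusted p = 2.74e-05), and HLA-E by 1.35 in 200904_at (1.08 to 1.63, 1.05e-05), its brightest probe set giving 0.29 with an adjusted p of 0.0514. That probe set was called with quantile normalization (0.41), a stricter filter or a variance trend and gave 0.09 with equal medians. TAP2 was lower by a difference of -0.96 (-1.20 to -0.73, 3.45e-05), TAP1 by -0.43 (-0.67 to -0.19, 0.00802), TAPBP by -0.58 (-0.96 to -0.21, 0.017) and HLA-C by -0.35 (-0.62 to -0.08, 0.0377), with all 4 HLA-C probe sets called. With the replicate number as a block, 2 of these 4 calls were lost (208812_x_at and 214459_x_at, adjusted p = 0.0532 and 0.0582). By probe set 2 of 25 were higher and 9 lower (26.3% and 16.6% of all). The NLRC5, TAP2 and TAP1 calls held in every alternative fit. The HLA-C call was lost without replicate 1 or 3 of CHR-3996, any single tosedostat array, replicate 3 of the combination or replicate 1 of untreated cells (-0.39 to -0.25, adjusted p up to 0.116), and that of TAPBP without replicate 1 of CHR-3996 or of tosedostat (-0.48 and -0.50). HLA-B (-0.27, interval -0.55 to 0.01), HLA-F (-0.15, -0.46 to 0.15) and B2M (0.02, -0.17 to 0.22) were not called, although HLA-B and HLA-F were called lower with equal array medians (-0.48 and -0.36), and HLA-B also in the fit with a variance trend and without replicate 2 of CHR-3996 (-0.39).

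The combination was compared with the same 3 tosedostat arrays. In the combination against tosedostat, NLRC5 was higher by 1.31 (95% interval 1.02 to 1.60) and HLA-E by 0.33 (0.77 in 200904_at), and TAP2 was lower by a difference of -1.06 (-1.29 to -0.82), where 30.4% of all genes were called higher and 15.8% lower. The HLA-E difference of the brightest probe set was 0.10 and not called with equal array medians, and its call was lost without replicate 1 or 3 of the combination or any single tosedostat array (0.27 to 0.34). By probe set 3 were higher and 3 lower (28.4% and 13.7% of all). TAPBP gave -0.39 (adjusted p = 0.0938), and was called lower by -0.46 with quantile normalization by -0.62 with equal medians and by -0.56 without replicate 1 of the combination. HLA-C and TAP1 gave -0.22 and -0.09 and were called lower with equal medians (-0.45 and -0.32), so that the split of 2 genes higher and 1 lower was 1 higher and 4 lower in that scaling.

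For tosedostat added to CHR-3996, 0 of the 9 genes were called by limma, where 0.0577% of all genes were. At an unadjusted p under 0.05, reached by 11.1% of all genes, there were 2, TAP1 with 0.34 (95% interval 0.10 to 0.59) and HLA-F with 0.31 (0.01 to 0.62). The TAP1 arrays did not overlap between these groups, as held for 15.4% of all genes. NLRC5 differed by 0.08 (-0.21 to 0.37) and TAP2 by -0.09 (-0.33 to 0.15). The interaction, by which the change with both compounds departs from the sum of the single changes, was called in 0 of the 9 genes by limma (0.276% of all genes), with 4 at an unadjusted p under 0.05, as held for 11.2% of all genes. These were TAP1 (-0.50, 95% interval -0.84 to -0.16), HLA-F (-0.51, -0.93 to -0.08), TAPBP (-0.55, -1.08 to -0.02) and TAP2 (-0.38, -0.71 to -0.04). HLA-F in 221978_at gave -1.28 (-1.90 to -0.66) with an adjusted p of 0.124.

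**Figure D4:**
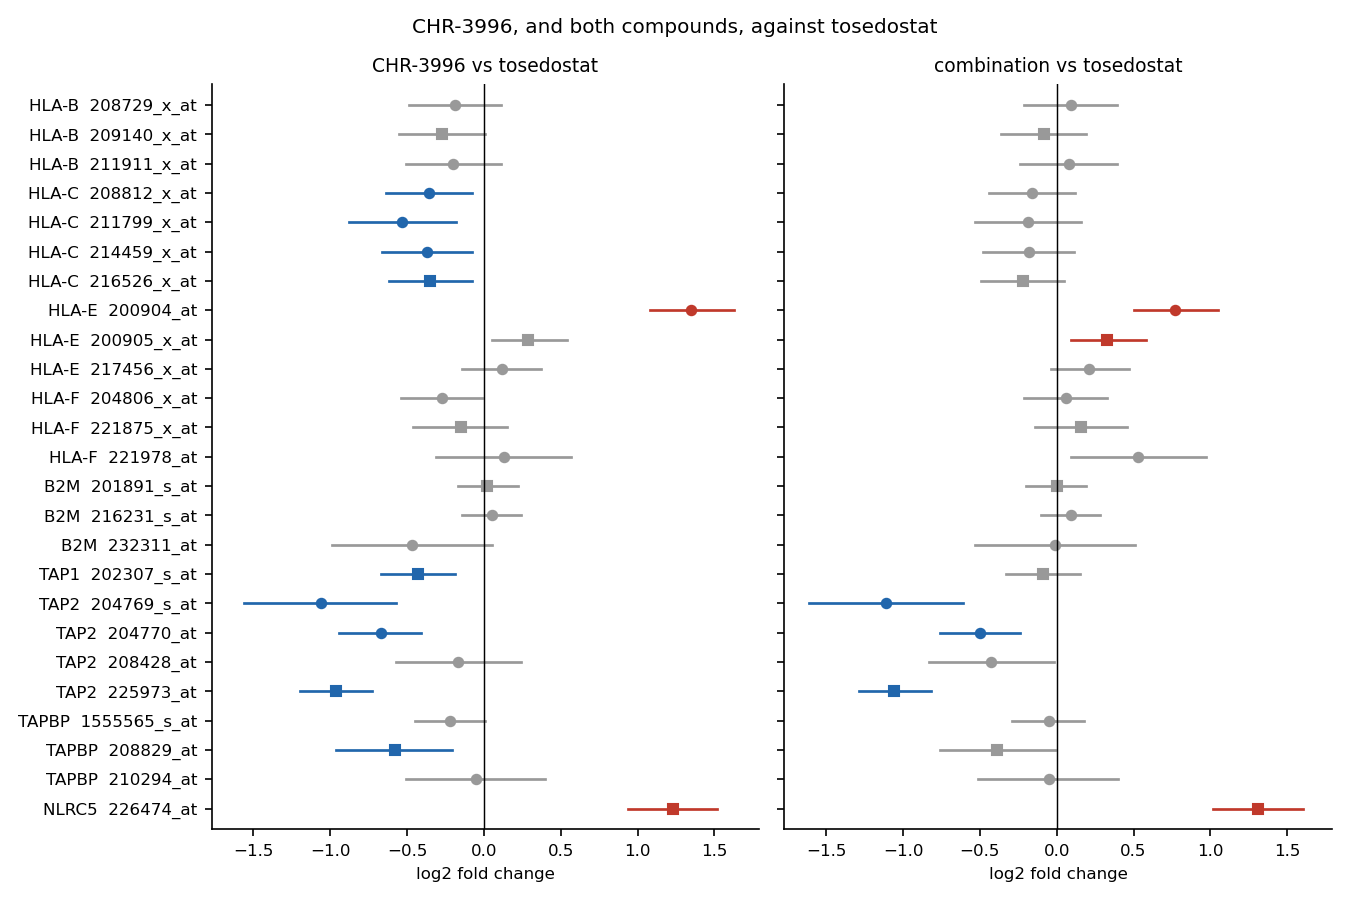
Log2 fold change (x axis) of the 25 probe sets (y axis) for CHR-3996 against tosedostat and for the combination against tosedostat, with 95% intervals from limma. Squares are the brightest probe set of each gene; red is called higher, blue called lower and grey not called. NLRC5 and 200904_at of HLA-E are higher in both panels, and TAP2 is lower in 3 of 4 probe sets in both.

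Other genes of the pathway were read from 6 lists. In the immunoproteasome and its activators, which make peptides suited to class I, 0 of 5 tested genes were called with tosedostat (4.25% of all genes higher and 0.545% lower). With CHR-3996 there were 0 higher and 2 lower (31.7% and 18% of all genes): PSMB10, a catalytic subunit, and PSME3, a nuclear activator subunit. PSMB10 read 8.88, 9.68 and 9.45 with CHR-3996, 10.96, 11.17 and 11 with tosedostat and 9.20, 9.60 and 9.36 with the combination, against 11.04, 11.09 and 11 in untreated cells. The CHR-3996 and combination arrays were all below the rest, by -1.70 and -1.65 (limma adjusted p of 2.38e-05 and 2.9e-05). PSME3 changed by -0.99 and -0.96. The other catalytic subunits PSMB8 and PSMB9 gave -0.23 and -0.06 with CHR-3996, -0.07 and 0.23 with tosedostat and -0.06 and 0.04 with the combination, and were not called. The list median was -0.23 with CHR-3996, 0.00 with tosedostat and -0.06 with the combination, beside 0.11, 0.04 and 0.15 over all genes.

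The enzymes that trim or destroy peptides include possible targets of tosedostat. With tosedostat 0 of 11 tested genes were called, beside 4.25% of all genes higher and 0.545% lower. ERAP1, which trims peptides to length in the endoplasmic reticulum, gave 0.41 (95% interval -0.09 to 0.92) with CHR-3996, 0.24 (-0.27 to 0.75) with tosedostat and 0.45 (-0.06 to 0.96) with the combination. ERAP2, its partner, gave 0.12 (-0.26 to 0.50), 0.35 (-0.03 to 0.73) and -0.06 (-0.44 to 0.32), and the cytosolic aminopeptidases LAP3 and NPEPPS were within 0.39 of untreated cells and not called in the fit without a block. With the replicate block in limma, ERAP1 was called higher with CHR-3996 and the combination (adjusted p = 0.0289 and 0.0194) and NPEPPS with the combination (0.0269). With equal medians LAP3 was called lower with CHR-3996 (-0.32, adjusted p = 0.038). CHR-3996 raised PEPD, a dipeptidase for proline peptides, by 0.92 and the peptidase NRDC by 0.61, and lowered THOP1, an oligopeptidase that destroys class I peptides, by a change of -1.31 and DPP3 by -0.64. The combination moved the same 4 genes the same way, with RNPEP, an aminopeptidase, higher by 0.49. That last call was not kept under either scaling. Of all genes 31.7% were higher and 18% lower with CHR-3996, and 34.6% and 15.9% with the combination. The list median was 0.08 with CHR-3996, 0.17 with tosedostat and 0.25 with the combination.

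Among 8 folding and loading partners in the endoplasmic reticulum, CHR-3996 lowered TAPBPL and CALR and raised 0 (18% and 31.7% of all genes). With tosedostat 0 were called (4.25% of all genes higher and 0.545% lower). With equal medians 5 were lower with CHR-3996, with CANX, PDIA3 and HSPA5 added, and 4 with the combination, against 1 in the deposited scaling. TAPBPL, a tapasin relative that edits peptides, read 6.45, 6.79 and 6.45 with CHR-3996, 8.42, 8.34 and 8.51 with tosedostat and 6.77, 7.05 and 7.12 with the combination, against 7.97, 8.0 and 7.87 in untreated cells. The changes were -1.38 with CHR-3996 and -0.97 with the combination (limma adjusted p of 9.39e-06 and 0.000122), and tosedostat gave 0.48 (0.0828). CALR, a chaperone of the loading complex, changed by -0.30 with CHR-3996, and with the combination it gave -0.08, which was not called, and -0.29 and -0.32 under the other scalings, both called. The list median was -0.19 with CHR-3996, 0.08 with tosedostat and -0.05 with the combination. Of 7 other partners of B2M, CD1D and CD1A, which present lipids, were higher with CHR-3996 by 1.49 and 3.30 and with the combination by 1.52 and 2.63, and 0 were called with tosedostat. In the deposited scaling 0 were called lower. Of all genes 31.7% were called higher and 18% lower with CHR-3996, 34.6% and 15.9% with the combination, and 4.25% and 0.545% with tosedostat. With quantile normalization and equal medians, MR1 (-0.84 and -0.68) and HFE (-0.71 and -0.54) were called lower with CHR-3996. So were HFE (-0.77 and -0.57) and CD1C (-0.96 in both) with the combination. The replicate block also gave a lower call of MR1 with CHR-3996 (limma adjusted p = 0.00837). The median of this list was -0.04 with CHR-3996, 0.06 with tosedostat and 0.20 with the combination. All untreated and tosedostat arrays for CD1A were below their 40th percentile. CD1A was thus tested only through the groups where it was high, and its changes are a description.

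Under tosedostat the calls among the 6 lists were in the transcription regulators of class I, and the fit with the replicate block added SPPL2A of the turnover list (0.61, adjusted p = 0.0224). Of the regulators 5 of 20 tested were higher and 0 lower (4.25% and 0.545% of all genes), with a list median of 0.14. RELB, a subunit of non-canonical NF-κB, read 5.43, 5.48 and 4.94 with CHR-3996, 7.28, 7.31 and 7.03 with tosedostat and 5.96, 6.46 and 5.59 with the combination, against 5.26, 5.52 and 5.08 in untreated cells. Tosedostat arrays stood above all others, with a change of 1.92 (limma adjusted p = 0.00134), beside 0.00 with CHR-3996 and 0.72 with the combination, and CHR-3996 differed from tosedostat by -1.92. The combination call was lost under both scalings (0.41 and 0.47). The other 4 were RFX5, the DNA-binding RFX subunit (1.01), IRF9, which acts downstream of interferon receptors (0.93), IRF1 (0.75), an interferon-induced activator of class I genes, and NFKB1 (0.64). The calls of IRF9 and NFKB1 with tosedostat were lost with quantile normalization (adjusted p 0.0711 and 0.0614), and that of NFKB1 also with equal medians.

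RFX5 was also higher with CHR-3996 (0.91) and the combination (1.05), as were IRF9 (1.56 and 1.31) and IRF1 (0.70 and 1.00). RFX5 read 11.15, 11.74 and 11.52 with CHR-3996, 11.71, 11.51 and 11.50 with tosedostat and 11.79, 11.52 and 11.54 with the combination, against 10.58, 10.70 and 10.40 in untreated cells. All treated arrays were above all untreated ones. In all, CHR-3996 moved 9 of the 20 regulators higher and 5 lower (31.7% and 18% of all genes), and the combination 10 and 4 (34.6% and 15.9%), with list medians of 0.22 and 0.42. The CHR-3996 split was 7 and 8 with quantile normalization and 6 and 8 with equal medians, and that of the combination 9 and 8 and then 8 and 6. The remaining RFX subunits RFXAP and RFXANK were higher with CHR-3996 by 0.83 and 0.90 and with the combination by 0.81 and 1.13, and the NF-Y subunits NFYA and NFYC were lower with CHR-3996, by -0.53 and -0.68. CIITA, the class II counterpart of NLRC5, was not called with any treatment in the deposited scaling (-0.15, -0.14 and -0.04). It was called lower with CHR-3996 under quantile normalization (-0.48) and equal medians (-0.37), and with the combination under quantile normalization (-0.41).

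The last list held 7 tested genes, grouped here under the turnover of class I proteins. It is a broad list, and SEC61A1 and SPPL2A in it are not particular to class I. CHR-3996 moved 4 of the 7 higher and 2 lower, the combination 4 higher and 1 lower, and tosedostat 0. Of all genes 31.7% were higher and 18% lower with CHR-3996, 34.6% and 15.9% with the combination, and 4.25% and 0.545% with tosedostat. Equal medians gave 2 higher and 2 lower with CHR-3996, and quantile normalization 2 and 2 with the combination. The list median was 0.60 with CHR-3996, 0.12 with tosedostat and 0.68 with the combination. MARCHF9, a membrane ubiquitin ligase that takes class I from the surface, was higher with CHR-3996 by 1.40 (limma adjusted p = 1.34e-05) and with the combination by 1.55. TMEM127 and SUSD6, which act together in the lysosomal removal of class I, were higher with CHR-3996 by 1.07 and 0.71 and with the combination by 0.78 and 0.68. The SUSD6 calls were lost with equal medians (0.49 and 0.44, adjusted p = 0.0529 and 0.0761) and that of the combination with quantile normalization, as was that of TMEM127. SPPL2A, an intramembrane protease, was higher with CHR-3996 by 0.60 and with the combination by 0.76. Its CHR-3996 call was lost with equal medians (0.38, limma adjusted p = 0.13). SEC61A1, the channel of the endoplasmic reticulum, changed by -0.72 with CHR-3996 and -0.61 with the combination.

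**Figure D5:**
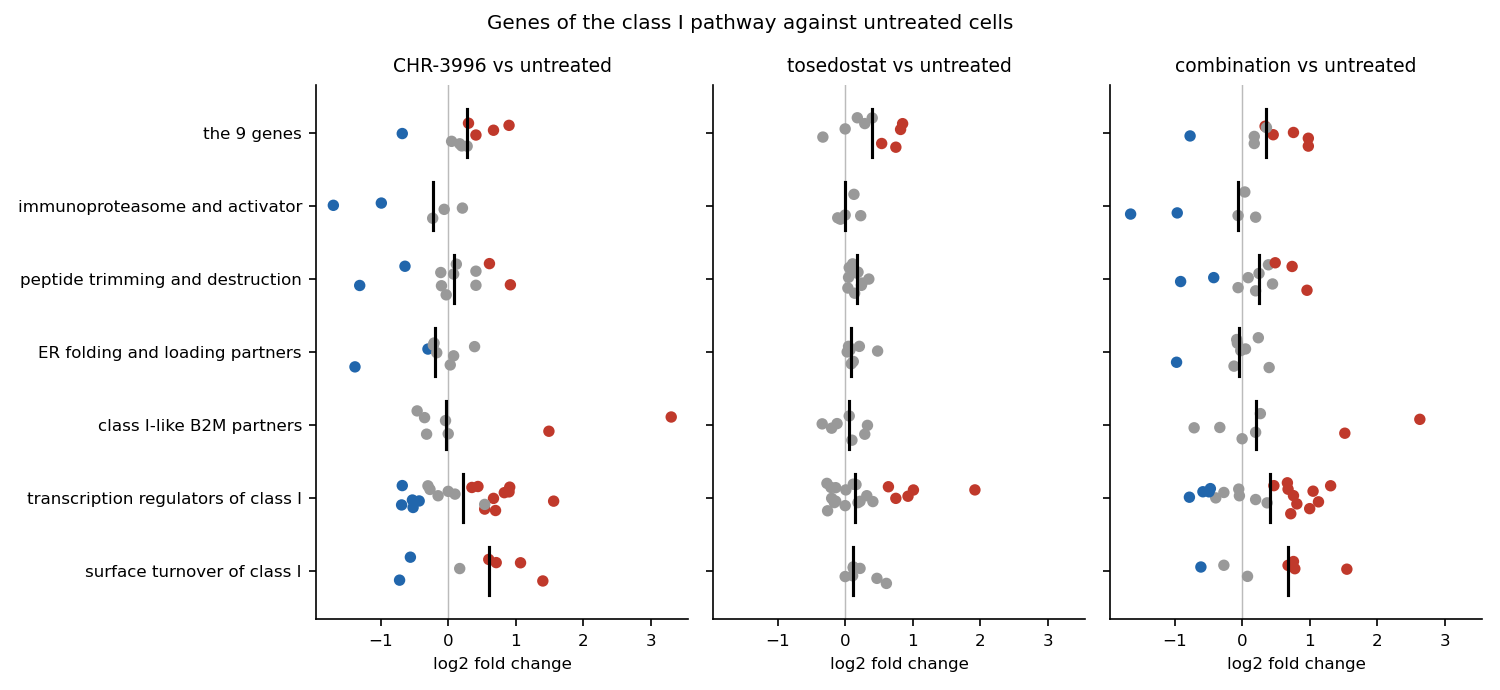
Log2 fold change against untreated cells (x axis) of the 9 genes and of 6 lists of other class I pathway genes (y axis), for CHR-3996, tosedostat and the combination. Points are genes, red called higher, blue called lower and grey not called in limma, and black bars are list medians. With tosedostat, the calls of the fit without a block lie among the 9 genes and the transcription regulators.

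The genes whose values over the 12 arrays were most like the mean standardized profile of the 9 genes were CLIC4 (Pearson r = 0.968), ATOX1 (0.959), RFX5 (0.951), EZR (0.949), DDIT4 (0.944), SQSTM1 (0.941), TMEM205 (0.931) and RAB24 (0.930). The 9 genes did not share 1 profile, as the Pearson r between their brightest probe sets ran from -0.95 (TAP2 with NLRC5) to 0.95 (HLA-B with TAP1). Likeness to the mean is therefore not likeness to each of the 9. The arrays fall into 4 treatment groups and share their scaling, so the r values describe likeness across groups and no test was attached. All 8 of the genes most like the mean had their lowest mean in untreated cells. The mean profile they were chosen by was itself lowest there, so this follows from the choice and is not a separate result. SQSTM1, an autophagy receptor, averaged 12.51 with CHR-3996, 13.06 with tosedostat and 12.99 with the combination, against 11.58 in untreated cells.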

How the data were processed

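RNA of 12 samples of H929 cells was amplified, labelled and hybridized to U133 Plus 2.0 arrays by the authors, who normalized the arrays in dChip. What was deposited is a log2 value for every one of 54675 probe sets on each array. Sources used here do not state the dChip version, its normalization or its probe summary. No further normalization was applied. Of 54613 probe sets other than 62 controls, the 36395 above an array's 40th percentile on at least 3 arrays were tested with limma 3.58.1 in R 4.3.3, with 1 term for each group, 8 residual degrees of freedom, 7 contrasts and Benjamini-Hochberg adjustment within each. All 25 probe sets of the 9 genes passed. Gene names came from the platform annotation, updated through RefSeq, and a gene is its brightest kept probe set with 1 symbol.

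All 9 genes and every probe set of theirs are named; from other lists up to 4 called genes a comparison, the aminopeptidases ERAP1, ERAP2, LAP3 and NPEPPS, and others chosen after their values were seen. The genes and lists were chosen with earlier results of these data known. The test was tried on simulated data. Alternatives were 2 scalings, other filters, a replicate block, a variance trend, the compared groups alone, other probe sets, the methods' own criteria and leaving out each array. Nothing states what the replicate numbers mark. Once group means were removed, arrays of equal number correlated at over 0.1 in all 3 pairs of tosedostat with untreated (0.13 to 0.29) and in all pairs of treated groups (0.12 to 0.28), whereas the values were 0.04 to 0.12 for CHR-3996 with untreated and 0.10 to 0.17 for the combination with untreated. Some genes of the lists are not reported here. Protein sequences of the heavy chains were not compared here. Python 3.11.15 with matplotlib 3.10.9 drew the figures. The number of arrays limits the precision.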

Additional observations from a re-analysis of the deposited data

How the results depend on the processing

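The calls of NLRC5 and TAP2 with CHR-3996 and the combination, of TAP1 with tosedostat and the combination, and of HLA-F with all 3 treatments held in the 9 alternative limma settings and with each array left out. The counts of called genes moved in these settings. With equal array medians, 3 were called for CHR-3996 against untreated cells (5 in the deposited scaling) and 5 for the combination against tosedostat (3). With no filter, 2 were called for tosedostat (4). By the methods' criteria, a fold of 2, a difference of 100 and p under 0.05, 0 were called for each treatment against untreated cells, 1, NLRC5, for CHR-3996 against tosedostat (5) and 2, NLRC5 and TAP2, for the combination against tosedostat (3). With 1 array left out the counts were 4 to 6 for CHR-3996, 2 to 4 for tosedostat, 5 to 7 for the combination, 2 to 3 for the combination against tosedostat, 3 to 6 for CHR-3996 against tosedostat, and 0 for the combination against CHR-3996 and for the interaction. The tosedostat count was 2 without replicate 3 of CHR-3996 or of the combination, or without any 1 tosedostat or untreated array, and the count for CHR-3996 against tosedostat was 3 without replicate 1 of tosedostat.

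The replicate block ended the call of HLA-E with CHR-3996 (0.30, adjusted p = 0.0547), so that 4 genes were called there, and no other call of the 9 genes by brightest probe set changed. Over the series it gave 2309 called probe sets for tosedostat (1338 without), 231 for the interaction (75) and 34 for the combination against CHR-3996 (23). Quantile normalization gave 166 for the interaction, and equal medians 15 for the combination against CHR-3996.

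Some changes that were not called turned their sign. Under quantile normalization these were HLA-E with tosedostat (-0.03), in the combination against CHR-3996 (-0.04) and in the interaction (-0.01), NLRC5 in the combination against CHR-3996 (-0.01) and B2M in the combination against tosedostat (0.07). With equal medians, HLA-C, B2M and TAPBP with CHR-3996 became -0.17, -0.02 and -0.05, HLA-E with tosedostat -0.01, HLA-C and B2M with the combination -0.06 and -0.07, HLA-F in the combination against tosedostat -0.07 and B2M in CHR-3996 against tosedostat -0.19. With the probe set of the largest interquartile range, HLA-E became -0.28 with tosedostat, -0.58 in the combination against CHR-3996 and -0.31 in the interaction, HLA-B 0.08 in the combination against tosedostat, HLA-F 0.13 in CHR-3996 against tosedostat, and B2M -0.20 with CHR-3996, 0.46 in the combination against CHR-3996, -0.47 in CHR-3996 against tosedostat and 0.19 in the interaction. With the mean of a gene's probe sets, HLA-E became -0.03 with tosedostat, -0.15 in the combination against CHR-3996 and -0.11 in the interaction, HLA-B 0.03 and B2M 0.02 in the combination against tosedostat, and B2M 0.16 in the combination against CHR-3996 and -0.13 in CHR-3996 against tosedostat. With 1 array left out, signs turned within ranges of -0.06 to 0.15 for HLA-C with CHR-3996, 0.00 to 0.01 for HLA-E with tosedostat, -0.03 to 0.12 for HLA-E in the combination against CHR-3996 and in the interaction, -0.02 to 0.03 for B2M in the combination against tosedostat, -0.06 to 0.01 for B2M and -0.02 to 0.18 for NLRC5 in the combination against CHR-3996. Causes were not tested. Probe sets near the 40th percentile of an array (221978_at of HLA-F in untreated cells) limit what their changes can show.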
